A study of Mus musculus with 6 samples.

Results

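Proteasome and immunoproteasome genes were followed in mouse hearts that had received ETX, or phosphate-buffered saline (PBS) as the vehicle, for 1 week. They were taken as every gene whose symbol is Psm, a single letter from a to g and then digits only, which gave 48 of the 19938 genes measured on transcript clusters of a single gene. Psmc3ip and Psme3ip1, which begin with the same letters but carry further ones, were left out. The hearts came from C57BL/6J mice at postnatal day 14, with 3 ETX hearts (replicates 6, 7 and 10) and 3 PBS hearts (replicates 3, 9 and 12), each on its own Affymetrix whole-transcript array. The labels do not spell out ETX, give no dose, route or sex, and call the hearts biological replicates. They name no transgene or mutation in either group. Values are the deposited log2 signals, and values by heart are given in the order of replicates just stated. For a gene with several clusters, the one with the highest mean signal stands for it.

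The proteasome is the protease that degrades most ubiquitin-tagged proteins of the cytosol and nucleus. Its core is a barrel of alpha and beta rings with catalytic sites on Psmb5, Psmb6 and Psmb7, and it is opened by a regulatory cap made of ATPases (Psmc genes) and non-ATPase subunits (Psmd genes), or by other activators (Psme genes). Interferons and cells of the immune system replace the 3 catalytic subunits by Psmb8, Psmb9 and Psmb10, which gives the immunoproteasome and favours peptides for MHC class I. In heart muscle the proteasome removes misfolded and sarcomere proteins, and the transcription factor Nfe2l1 raises its subunit genes together when its activity is impaired.

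Cardiomyocyte genes marked all 6 samples as heart, with Myh6, the main myosin heavy chain of the mouse heart, between 12.5 and 12.7. The summed linear signal of 8 cardiomyocyte markers was 48561 to 51377 in ETX, against 52190 to 52682 in PBS. All 8 lay below 0, where 48.4% of all genes lay above it, and 0 were called. The sum of 7 fibroblast markers was 6473 to 7081 in ETX, against 7246 to 8450 in PBS. Of these, 6 lay below 0 and 1 fell at a limma adjusted p under 0.05, against 2.43% of all genes. What part muscle and fibroblasts have in the proteasome values was not tested. Libraries stood apart in other tissue. The summed linear signal of 9 lung markers was 139 to 149 in ETX, against 1039, 2250 and 135 in PBS replicates 3, 9 and 12, so that PBS replicates 3 and 9 carried lung transcripts. The sum of 6 atrial markers was 6231, 7430 and 4188 in ETX, against 5804, 926 and 933 in PBS, and their mean log2 signal was 8.21, 8.33 and 6.77 in ETX, against 8.10, 6.07 and 6.29 in PBS. ETX replicates 6 and 7 and PBS replicate 3 are called the hearts with high atrial transcripts below. The counts and the named proteasome genes below were recomputed without these hearts. In tissue of mixed cells, fewer cells of a type and less RNA per cell cannot be told apart.

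One of the 48 proteasome genes changed: Psme4, the activator PA200, fell 1.36-fold in ETX hearts. None of the 17 subunits of the cap, the 14 constitutive subunits of the core, the 3 inducible catalytic subunits, the 7 assembly chaperones, the 2 tissue-restricted core subunits, the 3 other activators or the inhibitor passed the test. That is 1 of 48 genes at a limma adjusted p under 0.05, against 3.56% of the 14953 genes tested, and 1 lower and 0 higher, against 2.43% and 1.14% of all genes (of the 533 genes called, 170 were higher, and 125 of 584 after centring of each array on its median). All 48 proteasome genes had a mean above the filter on dim genes and were tested. At an unadjusted p under 0.05 there were 5 (Psme4, Psmd14, Psme1, Psmf1 and Psma7), against 21.9% of all genes. With a limma adjusted p under 0.1 the count was still 1 of 48, against 8.42% of all genes. The ETX and PBS hearts did not overlap for 12 of the 48, or 25%, against 27.7% of all genes, with 9 higher and 3 lower in ETX, against 11.6% and 16.1% of all genes. Over both directions the share was under that of all genes, while the share without overlap and higher in ETX was above it and none of those 9 was called. The differences were small, with a median size of 0.09 on the log2 scale, against 0.10 over all genes. A gene with the median standard error of the 48, 0.0743, needed a difference of 0.34, or 1.27-fold, to be called.

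Promoters of the gene that fell, of the cap subunit with the lowest p and of a constitutive and inducible catalytic pair are shown for the results that follow. Each line holds the 250 bases before the start of the gene, read along the gene, 5′ to 3′, from RefSeq's GRCm38.p6. Capitals mark matches to any of 3 motifs searched on both strands, with no 2 of the matches shown overlapping: TGACNNNGC, the core of the antioxidant response element bound by Nfe2l1 and Nfe2l2, CCAAT, bound by NF-Y, and the core of the interferon-stimulated response element.
Psme4 (chr11:30771525-30771774, plus strand): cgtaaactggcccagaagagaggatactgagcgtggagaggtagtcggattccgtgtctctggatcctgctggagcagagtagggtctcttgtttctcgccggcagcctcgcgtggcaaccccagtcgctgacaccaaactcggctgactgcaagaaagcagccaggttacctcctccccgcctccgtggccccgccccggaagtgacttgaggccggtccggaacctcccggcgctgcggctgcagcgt
Psmd14 (chr2:61711444-61711693, plus strand): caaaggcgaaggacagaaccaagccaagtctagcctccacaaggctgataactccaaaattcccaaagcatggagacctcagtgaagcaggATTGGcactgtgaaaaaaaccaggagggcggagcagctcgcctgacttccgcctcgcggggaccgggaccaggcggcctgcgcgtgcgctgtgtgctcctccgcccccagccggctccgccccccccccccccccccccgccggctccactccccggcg
Psmb5 (chr14:54617996-54618245, minus strand): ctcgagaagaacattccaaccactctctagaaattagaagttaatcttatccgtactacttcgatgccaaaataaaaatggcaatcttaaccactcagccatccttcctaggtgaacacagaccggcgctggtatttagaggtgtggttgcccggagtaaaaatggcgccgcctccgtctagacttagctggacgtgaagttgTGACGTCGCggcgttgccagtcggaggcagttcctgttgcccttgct
Psmb8 (chr17:34197945-34198194, plus strand): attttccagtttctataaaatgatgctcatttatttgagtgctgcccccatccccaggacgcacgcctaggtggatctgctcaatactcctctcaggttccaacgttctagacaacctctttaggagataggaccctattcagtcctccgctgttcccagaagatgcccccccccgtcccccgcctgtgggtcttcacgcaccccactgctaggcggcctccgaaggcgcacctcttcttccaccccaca
The Psme4 and Psmb8 windows held none of the 3 motifs. That of Psmb5 held TGACGTCGC, 47 to 39 bases before the start, and that of Psmd14 held CCAAT on the opposite strand, 159 to 155 bases before it. Promoters were found for 40 of the 48 genes, in 43 windows. TGACNNNGC lay in 5 of these 43 windows (11.6%, against 10.2% of all 32851 windows), those of Psmb5, Psmb6, Psmc6, Psmd12 and Psmd9. The interferon element core lay in 3 (6.98%, against 2.98%), those of Psmb3, Psmd4 and Psmd9, and CCAAT in 14 (32.6%, against 33.8%). A match is a run of letters and was not tested as a binding site.

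Among the activators, Psme4 fell and its relatives did not pass. Psme4 encodes PA200, a large protein that caps the core without ATP or ubiquitin and is known from DNA repair, spermatogenesis and the breakdown of acetylated histones. It was at 8.64, 8.56 and 8.63 in ETX hearts, against 8.998, 9.09 and 9.05 in PBS hearts. Each ETX heart lay below each PBS heart, with a gap wider than the range of either group. The means were 8.61 ± 0.04 in ETX and 9.04 ± 0.04 in PBS (SD, n = 3 each), a log2 difference of -0.44 (95% interval -0.59 to -0.29, limma adjusted p = 0.0165). By unadjusted p it ranked 107 of 14953 genes, and 4.15% of all genes tested had a larger difference. The call was lost without ETX replicate 7 (-0.41, limma adjusted p = 0.0761) or PBS replicate 3 (-0.46, 0.0529) and held without each of the other 4 hearts. Without both PBS hearts with lung transcripts the difference was -0.45 (limma adjusted p = 0.127), and it was -0.43 (0.102) once a lung-marker score was added as a covariate. PBS replicate 12, with a lung-marker sum of 135, was at 9.05, and PBS replicates 3 and 9 were at 8.998 and 9.09. The part of lung tissue in the difference was not tested. Leaving out the 3 hearts rich in atrial transcripts gave -0.44 (limma adjusted p = 0.552), and adding an atrial-marker score as a covariate gave -0.41 (0.0834). Other markers moved with the groups as well. The summed linear signal of 8 endothelial markers was 3734 to 4236 in ETX, against 4954 to 5076 in PBS. All 8 lay below 0, where 48.4% of all genes lay above it, and 4 fell, against 2.43% of all genes. Of 6 erythroid markers listed, 2 were measured. Their sum was 436 to 570 in ETX, against 307 to 349 in PBS, and both rose, against 1.14% of all genes. The part of these cells and of atrial tissue in the fall of Psme4 was not tested.

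**Figure D1:**
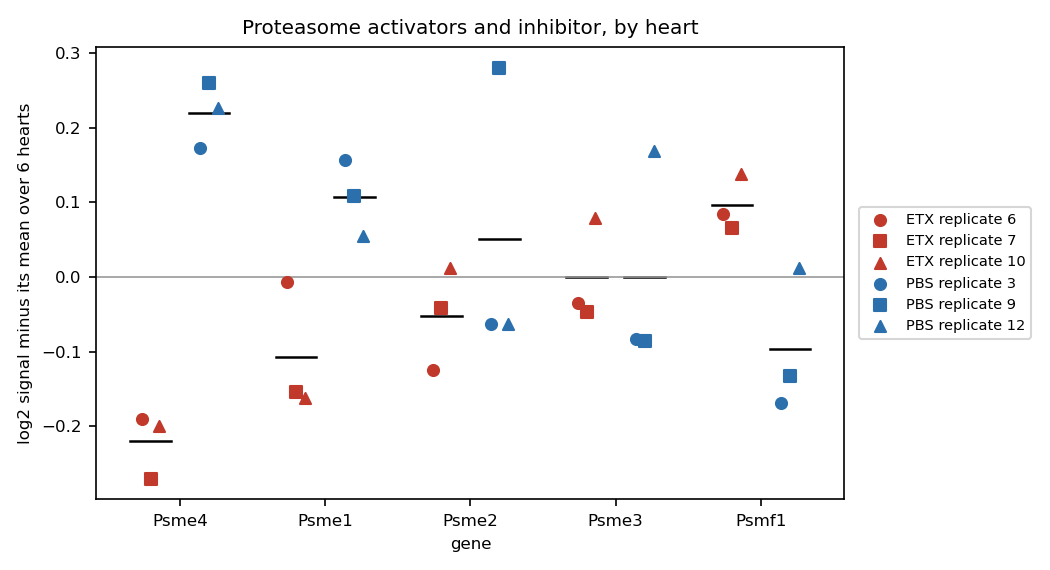
Log2 signal of the 4 proteasome activator genes and the inhibitor Psmf1 in each heart, minus the mean of that gene over the 6 hearts, with ETX hearts in red left of PBS hearts in blue and bars at group means. The ETX hearts lie below the PBS hearts for Psme4 (log2 difference -0.44) and Psme1 (-0.21, not called), above them for Psmf1 (0.19, not called), and among them for Psme2 and Psme3.

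Psme1 and Psme2 form the PA28 ring, which interferon induces and which aids the production of MHC class I peptides. Psme1 was at 8.95, 8.80 and 8.80 in ETX hearts, against 9.11, 9.07 and 9.01 in PBS hearts. The groups did not overlap, and the difference of -0.21 (95% interval -0.38 to -0.05) missed the threshold (limma adjusted p = 0.137). Psme2 was at 7.11, 7.20 and 7.25 in ETX hearts, against 7.17, 7.52 and 7.17 in PBS hearts, where PBS replicate 9 alone stood out. Its difference was -0.10 (95% interval -0.34 to 0.14, limma adjusted p = 0.611) and 0.01 without PBS replicate 9. A further cluster, which the annotation shares between Psme2 and its near-identical copy Psme2b, was left out by the rule of 1 gene a cluster and did not run alike. It was at 6.23, 6.21 and 6.41 in ETX hearts, against 6.61, 6.70 and 6.60 in PBS hearts, without overlap and with a difference of -0.35, so that the level of Psme2 is uncertain. Psme3, the nuclear PA28 gamma, did not differ beyond its spread, with 8.04 ± 0.07 in ETX and 8.04 ± 0.15 in PBS (SD, n = 3 each, limma adjusted p = 0.996). Psmf1, which encodes the inhibitor PI31, was at 6.27, 6.25 and 6.33 in ETX hearts, against 6.02, 6.06 and 6.20 in PBS hearts. Its groups did not overlap either, with ETX on top, and the difference was 0.19 (95% interval 0.03 to 0.36, limma adjusted p = 0.171).

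The 7 alpha subunits form the outer rings of the core, whose gate they close. None passed in limma (1 at an unadjusted p under 0.05), 6 of 7 had a difference above 0, and their median was 0.08, against -0.01 over all genes, of which 48.4% lay above 0. After centring of each array on its median, 4 of 7 lay above 0. Psma7 had the smallest p. It was at 8.57, 8.73 and 8.63 in ETX hearts, against 8.48, 8.50 and 8.42 in PBS hearts, with no overlap (difference 0.17, 95% interval 0.02 to 0.33, limma adjusted p = 0.192). Psma6 was at 8.67, 8.70 and 8.74 in ETX hearts, against 8.58, 8.64 and 8.66 in PBS hearts, again without overlap but by a hair (difference 0.08, limma adjusted p = 0.527). Psma3 overlapped, with 9.63, 9.77 and 9.75 in ETX hearts, against 9.53, 9.61 and 9.71 in PBS hearts (0.10, limma adjusted p = 0.479). The other 4, Psma1, Psma2, Psma4 and Psma5, differed by -0.05 to 0.09. With 1 heart left out, the median of the alpha subunits ran from 0.01 (ETX replicate 7 out) to 0.09 (ETX replicate 6 out). Their mean was 8.54, 8.67 and 8.67 in ETX hearts, against 8.55, 8.55 and 8.60 in PBS hearts, with ETX replicate 6 as low as the PBS hearts.

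The constitutive beta subunits, which hold the active sites, did not pass either (0 of 7 in limma, 0 at an unadjusted p under 0.05). Of the 7, 6 lay above 0, with a median of 0.09. Psmb1, a non-catalytic member, was at 8.57, 8.59 and 8.63 in ETX hearts, against 8.46, 8.49 and 8.47 in PBS hearts, without overlap (difference 0.12, 95% interval -0.02 to 0.26, limma adjusted p = 0.287). Some hearts stood low in several of these subunits at once. Psmb3, Psmb4 and Psmb5 were lowest in PBS replicate 12 (8.08, 7.79 and 7.26), and ETX replicate 10 was the lowest ETX heart for each of them (8.19, 7.91 and 7.58). Psmb2 was the member of this ring below 0 (difference -0.10, limma adjusted p = 0.545).

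The inducible catalytic subunits were not called, and their hearts overlapped (0 of 3 in limma, 0 at an unadjusted p under 0.05). Psmb8, the inducible chymotrypsin-like subunit, was at 6.23, 6.00 and 6.47 in ETX hearts, against 6.41, 6.93 and 6.38 in PBS hearts. ETX replicate 10 lay within the PBS range, and PBS replicate 9 stood above all other hearts. The difference was -0.34, with a 95% interval from -0.73 to 0.05 (limma adjusted p = 0.287), and it was -0.16 without PBS replicate 9. Psmb9 was at 6.17, 6.16 and 6.57 in ETX hearts, against 6.60, 6.53 and 6.22 in PBS hearts. ETX replicate 10 was as high as the upper PBS hearts and PBS replicate 12 as low as the lower ETX hearts (difference -0.15, 95% interval -0.47 to 0.17, limma adjusted p = 0.569). Psmb10 was at 7.16, 7.36 and 7.43 in ETX hearts, against 7.41, 7.38 and 7.06 in PBS hearts, and the groups overlapped fully (0.03, 95% interval -0.23 to 0.29, limma adjusted p = 0.902). By the median standard error the spread of these genes was wider than that of the core. It was 0.139 for the inducible subunits, against 0.0708 for the alpha and 0.0815 for the constitutive beta subunits, and 0.0743 for all 48. Single genes overlapped, with Psmb10 at 0.113 and the constitutive Psmb3 at 0.119.

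The 3 constitutive counterparts all had differences above 0, none called. Psmb5, the chymotrypsin-like subunit, was at 7.75, 7.79 and 7.58 in ETX hearts, against 7.66, 7.59 and 7.26 in PBS hearts (difference 0.21, 95% interval -0.05 to 0.47, limma adjusted p = 0.332). It was 0.09 without PBS replicate 12, its lowest heart, and 0.45 without both PBS hearts with lung transcripts. Psmb6, the caspase-like subunit, was at 9.65, 9.68 and 9.61 in ETX hearts, against 9.57, 9.55 and 9.45 in PBS hearts. Its groups did not overlap (0.12, 95% interval -0.03 to 0.28, limma adjusted p = 0.319). Psmb7, the trypsin-like subunit, was at 9.98, 9.93 and 9.90 in ETX hearts, against 9.92, 9.81 and 9.84 in PBS hearts (0.08, 95% interval -0.07 to 0.23, limma adjusted p = 0.515). Each inducible subunit was then set against the constitutive one it replaces, as the log2 difference within a heart. Only its change between hearts can be read, since the probes differ. Psmb8 minus Psmb5 was -1.48 ± 0.34 in ETX and -0.93 ± 0.30 in PBS (SD, n = 3 each), a shift of -0.55 with an exact two-sided permutation p of 0.2 (0.3 adjusted over the 3 pairs). Psmb9 minus Psmb6 shifted by -0.28 (exact permutation p = 0.2, adjusted 0.3) and Psmb10 minus Psmb7 by -0.05 (exact permutation p = 0.6, adjusted 0.6). With 3 hearts against 3 this test cannot go below 0.1. The shift of Psmb9 minus Psmb6 was -0.12 without both PBS hearts with lung transcripts and turned to 0.08 without the 3 hearts with high atrial transcripts.

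**Figure D2:**
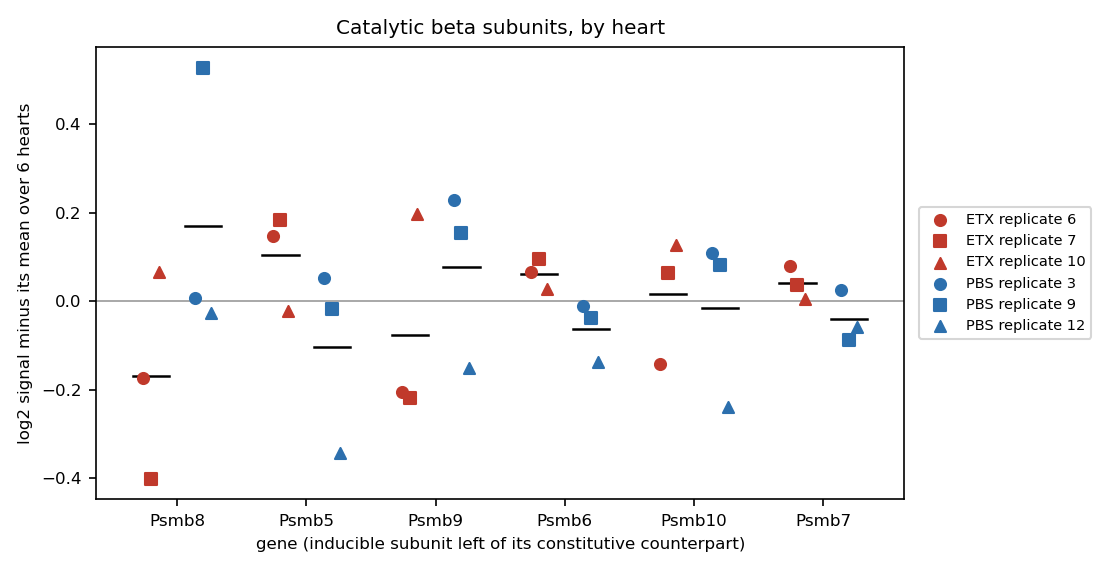
Log2 signal of the 3 inducible catalytic subunits, each left of the constitutive subunit it replaces, per heart and minus the mean of that gene over the 6 hearts, with ETX hearts in red left of PBS hearts in blue and bars at group means. PBS replicate 9 is highest for Psmb8 (6.93), ETX replicate 10 lies among the PBS hearts for Psmb9 (6.57), and Psmb6 alone has groups that do not overlap.

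Marker transcripts of immune cells, which are rich in immunoproteasome, differed between the groups. The summed linear signal of 14 macrophage markers was 1296 to 1396 in ETX, against 1682 to 2061 in PBS. All 14 lay below 0, where 48.4% of all genes lay above it, and 6 fell, against 2.43% of all genes. The sum of 6 antigen-presenting cell markers was 132 to 140 in ETX, against 362 to 584 in PBS, and 4 of them fell. The lymphocyte sum over 10 markers was 147 to 148 in ETX, against 157 to 198 in PBS. Of these markers 6 were tested, with 4 below 0 and 1 that fell, against the same 2.43% of all genes. Of the defining markers, Csf1r was at 7.06 to 7.22 in ETX, against 7.83 to 7.91 in PBS, and Cd74 at 5.09 to 5.50, against 7.11 to 8.27. Cd3e was at 4.53 to 4.63 in ETX, against 4.49 to 5.14 in PBS, where array medians were 4.43 to 4.51. Whether a marker was present or absent was not tested. With the macrophage-marker score in the fit, the difference of Psmb8 was 0.52 (limma adjusted p = 0.654) and that of Psme4 -0.32 (0.668). That fit called 0 of all genes in limma (1169 at an unadjusted p under 0.05). The score itself was 6.14, 6.12 and 6.21 in ETX hearts, against 6.44, 6.75 and 6.53 in PBS hearts. Since it does not overlap between the groups, a fit on 6 arrays cannot separate it from ETX. The part of these cells in the proteasome values was not tested. Of the lung markers, the surfactant gene Sftpc was at 3.10 to 3.31 in ETX, against 8.12, 8.58 and 3.59 in PBS. Psmb8 was highest in PBS replicate 9, the heart with most lung signal. Without both PBS hearts with lung transcripts the median of the 3 inducible subunits was 0.08, against -0.15 with them. That leaves PBS replicate 12 alone, the lowest PBS heart for Psmb8 (6.38), Psmb9 (6.22) and Psmb10 (7.06). The part of lung tissue in these values was not tested.

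The cap recognises ubiquitin, unfolds proteins and threads them into the core. Its 6 ATPases did not pass in limma (0 at an unadjusted p under 0.05), with differences from -0.01 to 0.11 and a median of 0.02. Psmc1 was at 8.45, 8.41 and 8.40 in ETX hearts, against 8.37, 8.40 and 8.17 in PBS hearts, and overlapped (difference 0.11, 95% interval -0.07 to 0.29, limma adjusted p = 0.470). Psmc4 was at 7.68, 7.66 and 7.65 in ETX hearts, against 7.68, 7.64 and 7.56 in PBS hearts (0.04, limma adjusted p = 0.783). Psmc6 was at 8.38, 8.47 and 8.62 in ETX hearts, against 8.30, 8.42 and 8.60 in PBS hearts, a range within each group far wider than the difference of 0.05 (limma adjusted p = 0.819). Psmc2, Psmc3 and Psmc5 differed by -0.01 to 0.01. The interval of Psmc5, -0.14 to 0.13, allows a change of up to about 1.10-fold either way.

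Of the 11 non-ATPase cap subunits 10 lay above 0, none called (0 in limma, 1 at an unadjusted p under 0.05), with a median of 0.09. The deubiquitinase Psmd14, which cuts the ubiquitin chain off the substrate, had the largest difference of them. It was at 8.32, 8.46 and 8.31 in ETX hearts, against 8.004, 8.11 and 8.21 in PBS hearts. The groups did not overlap, with a fold of 1.19 (95% interval 1.05 to 1.35) and a limma adjusted p of 0.120. Psmd13, a lid subunit, was at 7.63, 7.75 and 7.73 in ETX hearts, against 7.44, 7.59 and 7.59 in PBS hearts, also without overlap (difference 0.16, 95% interval -0.01 to 0.33, limma adjusted p = 0.242). Psmd6, another lid subunit, was at 8.21, 8.30 and 8.26 in ETX hearts, against 8.14, 8.12 and 8.14 in PBS hearts. Its groups were apart too, by a small step (0.13, 95% interval -0.02 to 0.27, limma adjusted p = 0.285). The ubiquitin receptor Psmd4 differed by 0.09, the scaffolds Psmd1 and Psmd2 by 0.09 and 0.06, and Psmd3, Psmd7, Psmd8, Psmd11 and Psmd12 by -0.0021 to 0.10. The mean over the 11 subunits was 8.20, 8.21 and 8.17 in ETX hearts, against 8.09, 8.09 and 8.12 in PBS hearts. All 3 ETX hearts were above the PBS hearts in this mean, by 0.09 on average. The median was 0.05 without ETX replicate 6 and 0.06 with arrays centred on their median, with 10 of 11 above 0 in that scaling.

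Assembly chaperones guide the subunits into place and leave the finished particle. Of the 7, 6 lay above 0 and 0 were called in limma (0 at an unadjusted p under 0.05), with a median of 0.07. Psmd9 was at 6.58, 6.54 and 6.47 in ETX hearts, against 6.55, 6.21 and 6.21 in PBS hearts, where PBS replicate 3 was as high as the ETX hearts (difference 0.21, 95% interval -0.02 to 0.44, limma adjusted p = 0.278). Psmd5 went the other way without overlap. It was at 6.78, 6.98 and 7.003 in ETX hearts, against 7.06, 7.02 and 7.20 in PBS hearts (-0.17, 95% interval -0.37 to 0.03, limma adjusted p = 0.293). Psmg2 was at 7.14, 7.24 and 7.33 in ETX hearts, against 7.24, 7.01 and 7.23 in PBS hearts (0.08, limma adjusted p = 0.645). Psmd10, Psmg1, Psmg3 and Psmg4 differed by 0.01 to 0.10. The tissue-restricted core subunits were dim. Psma8, known from testis, was at 3.60, 3.48 and 3.42 in ETX hearts, against 3.61, 3.37 and 3.35 in PBS hearts, close to the floor of 3.45 below which genes were not tested (difference 0.06, limma adjusted p = 0.753). Psmb11, the thymus subunit, was at 4.42, 4.22 and 4.15 in ETX hearts, against 4.06, 4.03 and 4.12 in PBS hearts, without overlap (0.19, limma adjusted p = 0.230). Both lay near the lower end of the genes tested.

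**Figure D3:**
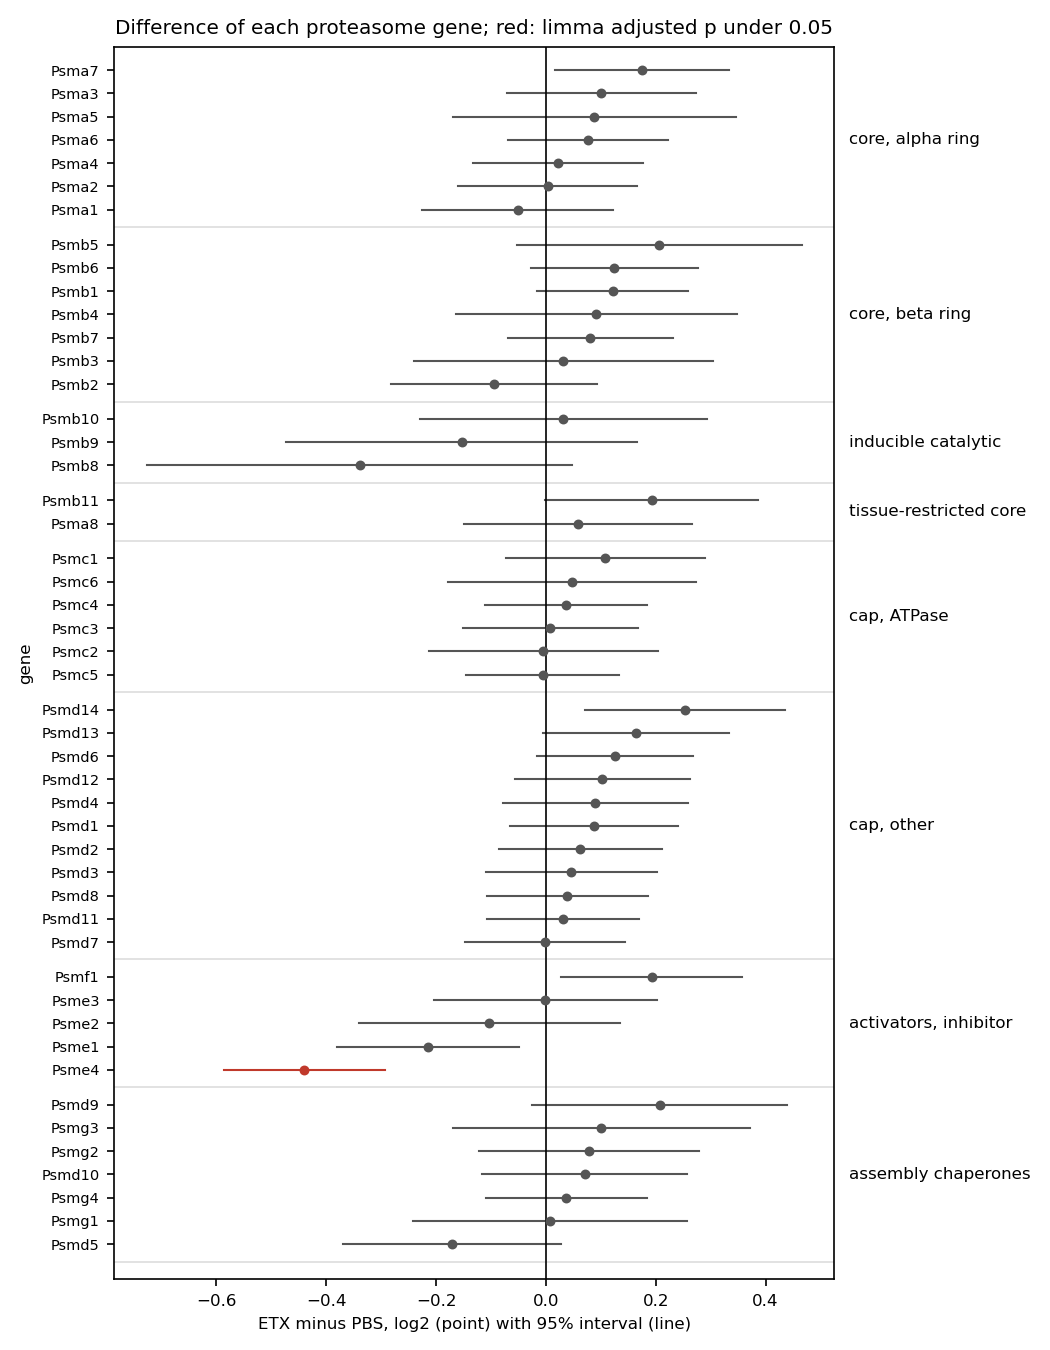
Difference in log2 signal (ETX minus PBS) of each of the 48 proteasome genes by role, with the 95% interval of the limma fit. Psme4, in red, is the gene that passed (-0.44), while the points of the core and cap lie between -0.10 and 0.25.

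The 31 constitutive core and cap subunits were then viewed together, since they make up a single particle. Of these, 26 lay above 0 (83.9%, against 48.4% of all genes), with a median of 0.08, against -0.01 over all genes. With centred arrays, 4 of 7 alpha, 6 of 7 beta, 3 of 6 ATPase and 10 of 11 non-ATPase subunits lay above 0. Over all genes that scaling left 6018 of 14953 above 0. Without ETX replicate 7 the counts were 4 of 7, 4 of 7, 4 of 6 and 11 of 11 in the same order. Of the 31, 7 were without overlap, or 22.6%, against 27.7% of all genes, and all 7 were higher in ETX. Their mean signal was 8.36, 8.40 and 8.36 in ETX hearts, against 8.31, 8.31 and 8.29 in PBS hearts, 0.07 apart. The ETX hearts were all above the PBS hearts in this mean, which was 8.37 ± 0.021 in ETX and 8.30 ± 0.012 in PBS (SD, n = 3 each). The roles differed in how hearts lay. The 4 activators and the inhibitor together averaged 7.80, 7.76 and 7.82 in ETX hearts, against 7.85, 7.94 and 7.93 in PBS hearts, so that here the ETX hearts lay lower. Psme4 makes up most of that difference, and Psmf1 lay the other way. In the inducible subunits ETX replicates 6 and 7 and PBS replicate 12 were low and the other 3 hearts high.

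**Figure D4:**
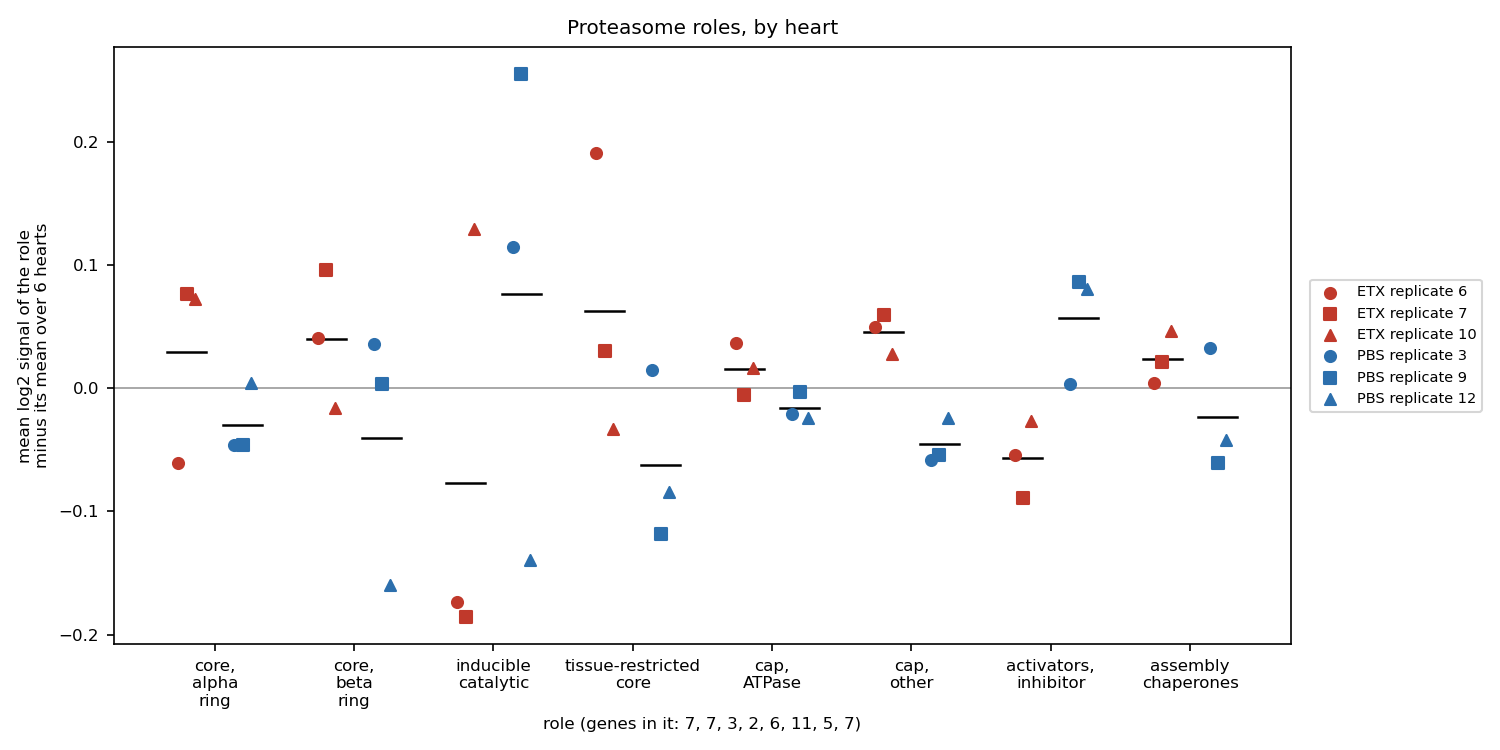
Mean log2 signal over the genes of each role in each heart, minus its mean over the 6 hearts, with ETX hearts in red left of PBS hearts in blue and bars at group means. The ETX hearts lie above the PBS hearts in the non-ATPase cap subunits, below them in the activators, where Psme4 makes up most of the difference (-0.44), and mix with them in the inducible subunits.

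For the 5 genes with more than 1 cluster of their own, the clusters were compared. The 3 clusters of Psma3 differed by 0.10, 0.09 and 0.10, the 2 of Psma5 by 0.09 and 0.11, and the 2 of Psmb3 by 0.03 and 0.07. The 2 clusters of Psmc1 differed by 0.11 and 0.06 and those of Psmd2 by 0.06 and 0.00. Related sequences elsewhere in the genome can share such probes, which was not tested.

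Genes around the proteasome were read from 4 lists. The Nfe2l1 route is that by which cells raise subunit genes when the proteasome is inhibited. Its list also held Nfe2l2 and Keap1, of the oxidant response. Of the 9 genes tested on this list, 1 fell and 0 rose, with a median of -0.11. The gene that fell was Nfe2l2, which encodes the oxidant-responsive factor NRF2. It was at 8.31, 8.24 and 8.45 in ETX hearts, against 8.65, 8.77 and 8.91 in PBS hearts, a difference of -0.44 (limma adjusted p = 0.0420). The groups did not overlap, but the call was lost in each of the 6 fits without 1 heart (limma adjusted p up to 0.147). Nfe2l1 itself was at 8.63, 8.58 and 8.62 in ETX hearts, against 8.76, 8.72 and 8.72 in PBS hearts, without overlap and not called (-0.12, limma adjusted p = 0.278). None of the 17 tested partners of the proteasome was called in limma, with a median of 0.01. The deubiquitinase Uchl5, which binds the cap, had the smallest p there (0.19, limma adjusted p = 0.166), followed by Akirin2, which brings proteasomes into the nucleus (-0.14, 0.288). Of 12 genes on the ubiquitin list, 7 were measured and tested. All 7 encode ubiquitin-activating or ubiquitin-conjugating enzymes, and ubiquitin itself is not among them. None was called in limma, with Uba6, a ubiquitin-activating enzyme, at -0.23 (limma adjusted p = 0.132) and Ube2n, a ubiquitin-conjugating enzyme, at -0.22 (0.341). Over the 4 lists, 3 of 46 genes fell and 0 rose, against 2.43% and 1.14% of all genes, while 10 had an unadjusted p under 0.05, against 21.9% of all genes. Without both PBS hearts with lung transcripts limma called 0 of the 46 (6 at an unadjusted p under 0.05), and 0 without the 3 hearts rich in atrial transcripts (4).

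The last list held genes of MHC class I peptide loading, which uses what the immunoproteasome makes, and transcription regulators. Of its 13 tested genes, 1 lay above 0, against 48.4% of all genes, 12 lay below 0 and 2 fell, against 2.43% of all genes. Both are chaperones of the endoplasmic reticulum with wider duties. Calr, calreticulin, was at 9.31, 9.37 and 9.36 in ETX hearts, against 9.89, 9.96 and 9.91 in PBS hearts, 1.49-fold lower (limma adjusted p = 0.00649). It passed in all 6 fits without 1 heart. Pdia3, a disulfide isomerase, was 8.76 ± 0.06 in ETX and 9.21 ± 0.13 in PBS (SD, n = 3 each, limma adjusted p = 0.0329) and passed in none of those 6 fits (up to 0.0952). The peptide transporter Tap1 was at 5.33, 5.38 and 6.26 in ETX hearts, against 5.65, 5.87 and 5.50 in PBS hearts, so that ETX replicate 10 was the highest of all, as it was among the ETX hearts for Psmb8, Psmb9 and Psmb10. The class I light chain B2m was at 10.45, 10.59 and 10.96 in ETX hearts, against 10.70, 11.20 and 11.12 in PBS hearts, and overlapped (-0.34, limma adjusted p = 0.274). The gene above 0 was Nlrc5, one of the regulators. It was at 8.22, 8.23 and 8.26 in ETX hearts, against 8.11, 8.07 and 8.12 in PBS hearts. Its groups did not overlap and it was not called (0.13, limma adjusted p = 0.250).

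**Figure D5:**
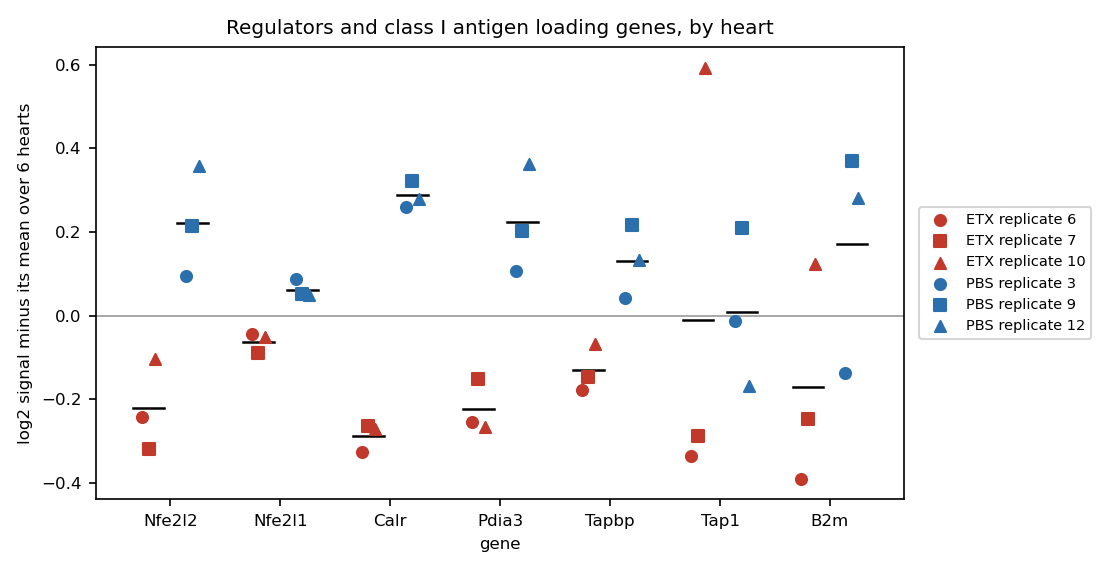
Log2 signal of 7 genes around the proteasome in each heart, minus the mean of that gene over the 6 hearts, with ETX hearts in red left of PBS hearts in blue and bars at group means. Nfe2l2, Calr and Pdia3 fell in ETX, Nfe2l1 and Tapbp lie lower in every ETX heart without passing, and ETX replicate 10 is the highest heart for Tap1 (6.26).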

How the data were processed

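RNA from hearts was hybridised to 1 array a heart, with 3 hearts from ETX-treated and 3 from PBS-treated mice. The deposited values are log2 signals made by the authors with RMA in Affymetrix Expression Console, per the submitters' processing notes. For versions, annotation and filters, the sources used here give nothing. RMA makes the arrays' distributions nearly equal, so a change shared by most genes cannot be seen. Array medians were 4.43 to 4.51 and the correlations between arrays 0.985 to 0.994. The number of arrays limits the precision.

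Of 35556 transcript clusters, 21789 carried 1 gene symbol in GEO's platform annotation, 1621 several and 12146 none. Clusters with 1 symbol were used, the brightest for each gene, and genes with a mean under the lower quartile (3.45) were left out, which left 14953 genes. ETX and PBS hearts were compared with limma 3.58.1 in R 4.3.3 (lmFit and eBayes, two-sided, Benjamini-Hochberg over all genes tested, threshold 0.05). The fit was tested on simulated data. No more than the spread between these hearts enters a p-value, and the labels do not say whether they share litters. Within-heart pairs of subunits were compared with an exact permutation test. Named are the genes that passed, the catalytic subunits and counterparts, Psme1 and Psme2, and the 3 smallest p in each role. The text also names other subunits by their difference alone. Values of Tap1, B2m, Nfe2l1, Nlrc5 and the cluster shared by Psme2 and Psme2b were chosen after they were seen. The members, gene lists, markers, motifs and alternatives were chosen with earlier results of these data known. Promoters came from RefSeq's GRCm38.p6, and 1 further motif searched in them is not reported here. Alternatives changed the filter, cluster rule, scaling, variance model, weights, threshold, hearts used and marker covariates.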

Additional observations from a re-analysis of the deposited data

How the results depend on the processing

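No paired analysis was possible because the ETX and PBS hearts share no replicate numbers. Psme4 kept its direction in all 19 alternatives, from -0.47 to -0.32, and its call in 12 of them (limma adjusted p from 0.00464 to 0.668). The 7 in which it was lost were those without ETX replicate 7, without PBS replicate 3, without the lung or the atrial hearts and with each of 3 marker scores. Leaving out hearts leaves fewer arrays, and with 1 heart in a group that heart is assumed to vary like the others. The macrophage score does not overlap between the groups, so its fit cannot separate it from ETX. Beyond that, the cause was not tested.

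The count of all genes called was 909 with the stricter filter, 870 with an intensity trend, 1259 at an adjusted p of 0.1, 94 (without ETX replicate 7) to 241 (without PBS replicate 9) with 1 heart left out, 19 without both lung hearts, 2 without the 3 atrial hearts, and 47, 83 and 0 with the lung, atrial and macrophage scores (limma, 1169 at an unadjusted p under 0.05 in the last). Proteasome genes called were 0 to 1 with 1 heart left out and 0 in those 5 fits, where 5, 1, 5, 5 and 0 had an unadjusted p under 0.05. Of the genes around the proteasome, 1 was called with any 1 heart left out, and 0, 0, 0, 1 and 0 in the same 5 fits.

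Median differences by role moved as follows. The ATPases were at -0.0069 with centred arrays, 0.056 with further quantile normalization, 0.057 without the lung hearts and 0.045 with the lung score. The non-ATPase subunits were at 0.059 centred, 0.117 with quantile normalization, 0.021 without the atrial hearts, and 0.068, 0.043 and 0.034 with the lung, atrial and macrophage scores. The activators were at -0.047 with quantile normalization, -0.163 without the lung hearts, and -0.146, -0.020 and -0.031 with the 3 scores. The inducible subunits were at 0.076 without the lung hearts, 0.195 without the atrial hearts, and 0.042 and 0.150 with the lung and macrophage scores. The beta subunits were at 0.20 without the lung hearts and 0.18 with the lung score, and with the macrophage score the tissue-restricted subunits were at -0.063 and the chaperones at -0.17. With 1 heart left out the medians ran from 0.0073 to 0.095 for alpha subunits, 0.0090 to 0.047 for ATPases, 0.051 to 0.108 for non-ATPase subunits, -0.160 to -0.044 for activators, and 0.028 to 0.066 for chaperones.

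Of 473 alternative values of 25 named subunits, 445 kept direction and side of the threshold and 21 reversed, none of them called. With 1 heart left out, Psmb10 lay between -0.080 and 0.11 (-0.023 without ETX replicate 10), Psmc6 between -0.022 and 0.127, and Psme2 between -0.160 and 0.012. Without the lung hearts Psmb9 was 0.076, Psme2 0.012 and Psmc6 -0.11, and with the lung score Psmb9 was 0.042, Psme2 0.057, Psmc6 -0.063 and Psmg2 -0.018. Without the atrial hearts Psmb9 was 0.20, and with the atrial score Psma8 was -0.043. With the macrophage score Psmb8 was 0.52, Psmb9 0.033, Psmb7 -0.059, Psme2 0.38, Psma8 -0.21, Psmd9 -0.17 and Psmg2 -0.17. The shift of Psmb10 minus Psmb7 was -0.152 to 0.050 with 1 heart left out, 0.16 without the lung hearts and 0.13 without the atrial hearts, and that of Psmb9 minus Psmb6 was 0.081 without the atrial hearts.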
